A study of Homo sapiens with 4 samples.

Results

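The BCL2 family decides whether the outer mitochondrial membrane is opened during apoptosis, and its transcripts were followed here in irradiated bronchial epithelial cells. The genes were taken by symbol from the list of all genes: 3 pro-survival members (BCL2, BCL2L1, MCL1), 2 effectors (BAX, BAK1) and 5 BH3-only members (BID, BAD, BBC3, PMAIP1, BCL2L11), 10 of the 36601 genes listed. All 10 had UMIs in every library. The effectors and the BH3-only members are together called the 7 pro-death members below.

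BEAS-2B, a human bronchial epithelial line immortalized with an adenovirus 12 and SV40 hybrid virus, was the only cell type in the study. A control library received no radiation, and the libraries of 10 mGy, 100 mGy and 1 Gy came from cells given Cs-137 gamma rays and taken for sequencing 30 min later. The study calls 10 mGy and 100 mGy its low-dose group and asks how gene expression varies between cells after such doses. Each dose has 1 library and no replicate, so dose and library cannot be told apart here, no test between doses was possible, and every interval given is an exact 95% interval that covers counting error only.

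Pro-survival members hold the effectors in check by binding them or by binding the BH3-only proteins that would activate them. BAX and BAK1 form the pores through which cytochrome c leaves the mitochondria. BH3-only proteins carry the stress signal: BID and BIM (the product of BCL2L11) can activate the effectors directly, BAD binds BCL2 and BCL-xL, NOXA (PMAIP1) binds mainly MCL1, and PUMA (BBC3) binds all of the pro-survival members. MCL1 is known for a short-lived mRNA and protein.

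The libraries held between 211752280 and 285806026 UMIs in 11111 to 21514 barcodes, with a median of 12417 to 19771 UMIs per barcode. Between 19.6% and 41.4% of the barcodes had a UMI count that, taken 3 times, stayed under their library's median, and these are called low-UMI barcodes. Between 76 and 134 barcode sequences were shared by any 2 libraries. Of the 8 epithelial markers, KRT7, KRT8, KRT18 and KRT17 were well above 10 CPM (UMIs per 1000000 UMIs of the library) in every library. The other 4 were far below it, with at most 2.41 CPM for KRT19, 1.17 CPM for EPCAM, 0.0490 CPM for CDH1 and 0.0282 CPM for KRT5. Leukocyte markers summed to 1.36 to 1.84 CPM, with CD3E and MS4A1 at 0, endothelial markers to 0.519 to 0.763 CPM, and fibroblast markers to 20.8 to 25.9 CPM, nearly all of it COL1A1.

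By CPM, all 3 pro-survival members were lower in both low-dose libraries than in the control, and none was lower at 1 Gy. For BCL2L1 at 10 mGy this direction turned when libraries were scaled by the median ratio of genes (1.10 of the control). MCL1 (chr1:150574551-150579738 in GRCh38, minus strand) was measured at 132 CPM in the control and 142 CPM at 1 Gy, and at 83.0 CPM (10 mGy) and 72.1 CPM (100 mGy) between them. The low-dose libraries were therefore at 0.627 (0.616 to 0.638) and 0.545 (0.535 to 0.555) of the control, and the 1 Gy library at 1.07 (1.06 to 1.09). BCL2 (chr18:63123346-63320128, minus strand), the founding member of the family, was a rare transcript, at 5.27, 3.49, 2.19 and 5.29 CPM in the order control, 10 mGy, 100 mGy and 1 Gy. Relative to the control, BCL2 stood at 0.663 (0.608 to 0.723) for 10 mGy, 0.415 (0.374 to 0.461) for 100 mGy and 1.00 (0.923 to 1.09) for 1 Gy. At 100 mGy BCL2 was the member furthest below the control, whereas at 10 mGy it was MCL1. BCL2L1 (chr20:31664452-31723989, minus strand) encodes BCL-xL and, by splicing, the shorter pro-death form BCL-xS, which counts from the 3' end cannot separate. Its 4 levels were 80.3, 71.6, 60.7 and 86.0 CPM from the control to 1 Gy, a narrower range than that of MCL1. For BCL2L1 the low-dose libraries were at 0.891 (0.873 to 0.910) and 0.756 (0.739 to 0.773) of the control, and 1 Gy was at 1.07 (1.05 to 1.09).

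**Figure D1:**
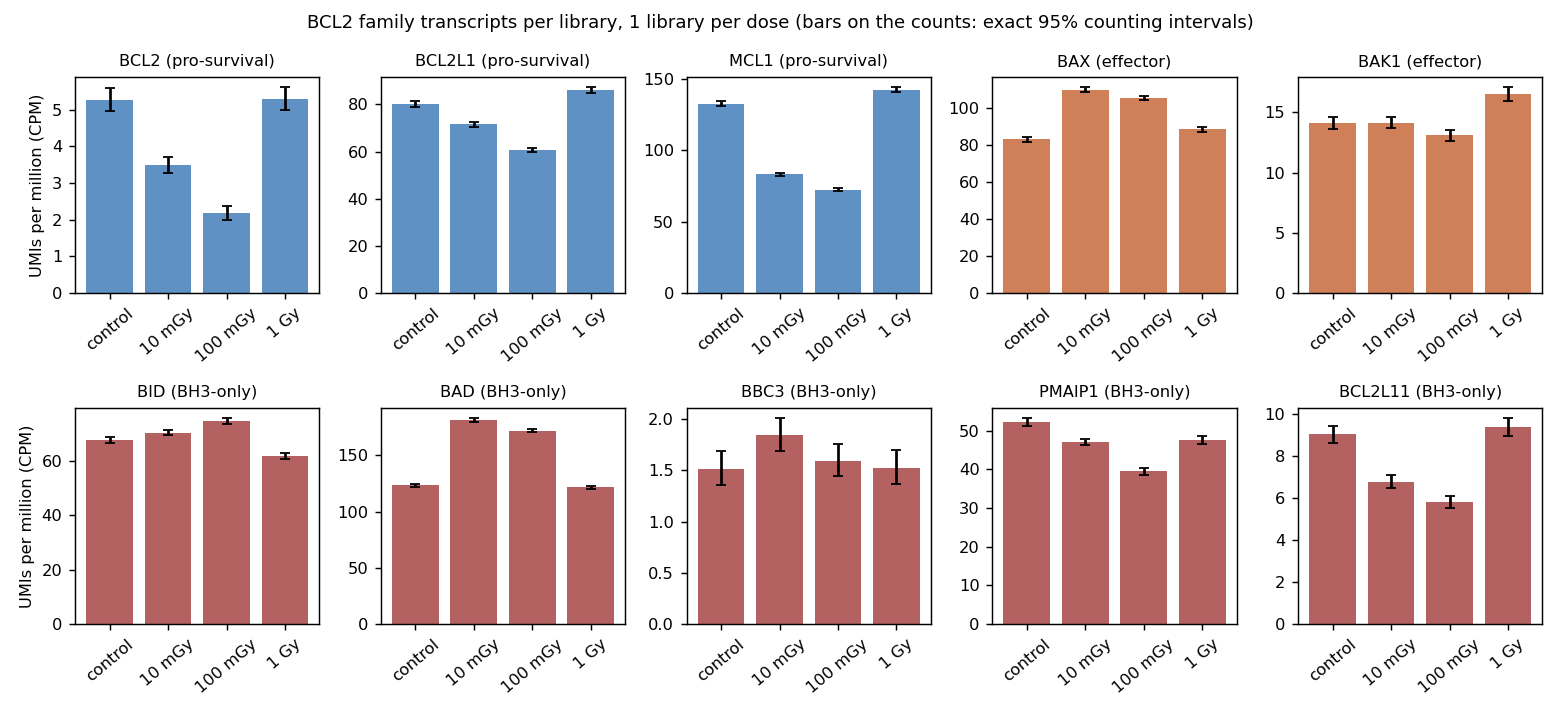
Level of each member in CPM (vertical axis, from 0, with its own scale per gene) in the 4 libraries (horizontal axis); error bars are exact 95% counting intervals and colours mark pro-survival (blue), effector (orange) and BH3-only (red) members. MCL1 had 132 CPM in the control and 72.1 CPM at 100 mGy, whereas BAD had 123 CPM and 172 CPM in the same libraries.

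The effector BAX went the other way in the low-dose group. BAX (chr19:48954815-48961798, plus strand) was measured at 82.9, 109.7, 105 and 88.3 CPM from the control to 1 Gy. Both low-dose libraries were above the control and the 1 Gy library, with ratios to the control of 1.32 (1.30 to 1.35), 1.27 (1.25 to 1.29) and 1.07 (1.04 to 1.09). BAK1 (chr6:33572547-33580293, minus strand), the second pore former, was close to the control by CPM in the low-dose group, at 14.1 CPM in the control, 14.1 CPM at 10 mGy and 13.1 CPM at 100 mGy (ratios 1.00 and 0.929). Under median ratio scaling BAK1 was at 1.23 and 1.21, which turns the direction at 100 mGy. In BAK1 the highest library was 1 Gy, at 16.5 CPM, which is 1.17 (1.11 to 1.23) of the control and the largest difference of any member at that dose.

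The BH3-only members did not move as one group. BAD (chr11:64269830-64284704, minus strand) had the largest excess of all members in the low-dose group, with 181 and 172 CPM there against 123 CPM in the control and 122 CPM at 1 Gy. The 3 ratios to the control, by dose, were 1.47 (1.45 to 1.49), 1.39 (1.37 to 1.42) and 0.987 (0.970 to 1.00). GPR137, whose exons overlap BAD on the opposite strand, was lower than the control in the same libraries, at 0.830 and 0.758. BID (chr22:17734138-17774770, minus strand), the substrate of caspase-8, had 67.7, 70.5, 74.7 and 61.8 CPM from the control to 1 Gy, so the low-dose libraries were slightly above and the 1 Gy library slightly below the control (ratios 1.04, 1.10 and 0.912). BBC3 (chr19:47220822-47232766, minus strand) was the rarest member, with 322 to 527 UMIs per library. Its levels were 1.51, 1.84, 1.60 and 1.53 CPM from the control to 1 Gy. At 10 mGy BBC3 was at 1.22 (1.06 to 1.40) of the control, and at 100 mGy and 1 Gy its interval included the control (0.907 to 1.23 and 0.861 to 1.18 as ratios).

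PMAIP1 (chr18:59899948-59904306, plus strand) and BCL2L11 (chr2:111119378-111168447, plus strand) are pro-death by function but had lower CPM in the low-dose group. For PMAIP1 at 10 mGy the direction turned under median ratio scaling (1.11 of the control), and at 100 mGy the value was then 0.986. PMAIP1 had 52.2, 47.0, 39.4 and 47.6 CPM from the control to 1 Gy, so the control was the highest library. Ratios to the control for PMAIP1 were 0.901 (0.878 to 0.924), 0.755 (0.735 to 0.776) and 0.911 (0.887 to 0.936). BCL2L11 had 9.02, 6.75, 5.80 and 9.36 CPM in the order of dose, with ratios of 0.748 (0.702 to 0.798), 0.642 (0.599 to 0.688) and 1.04 (0.974 to 1.11). BCL2L11 overlaps exons of MIR4435-2HG on the opposite strand, which was at 0.881 and 0.915 of the control in the low-dose group. MIR4435-2HG had far higher levels than BCL2L11, at 108, 95.4, 99.1 and 108 CPM from the control to 1 Gy. Whether the counts used strand is not given in the sources used here, so reads of BCL2L11 and of BAD cannot be told apart with certainty from those of their antisense partners. The same holds for BCL2L1 and its antisense gene ABALON, at 0.465 and 0.256 of the control in the low-dose group. MCL1 shares exons on its own strand with ADAMTSL4-AS1, which was at 0.225 and 0.195 there, from 3.21 CPM in the control. BAK1 has the annotated copies BAK1P1 and BAK1P2, with which it could share reads.

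Most expressed genes were lower in the low-dose group, and the members have to be read against that shift. Over the 8507 genes with a mean of at least 10 CPM, the median log2 ratio was -0.30 for 10 mGy, -0.38 for 100 mGy and 0.02 for 1 Gy. With 1.2-fold as the limit, which is the study's own, 3 of 10 members were higher at 10 mGy (BAX, BAD, BBC3) beside 15.4% of all genes, and 3 were lower (BCL2, MCL1, BCL2L11) beside 53% of all genes. At 100 mGy 2 members were higher (BAX, BAD) beside 14.0% of all genes, and 5 were lower (BCL2, BCL2L1, MCL1, PMAIP1, BCL2L11) beside 58.9%. At 1 Gy 0 members were higher beside 1.28% of all genes, and 0 were lower beside 0.846%. The counts of lower members thus lie near or below the share of all genes. BCL2, BBC3 and BCL2L11 are themselves below the floor of 10 CPM for the genes in these shares. None of the 3 pro-survival members was over the limit upwards, but 3 genes are too few to set against 15.4%, 14.0% and 1.28% of all genes.

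When the libraries were scaled to each other by the median ratio of genes instead of total UMIs, the split of the members turned. At both low doses 5 pro-death members were then over 1.2-fold higher (BAX, BAK1, BID, BAD, BBC3), beside 30.6% of all genes at 10 mGy and 31.8% at 100 mGy. BCL2 and MCL1 were then the 2 lower members at both doses, beside 27.3% and 29.0%, and BCL2L1, PMAIP1 and BCL2L11 lay within 1.2-fold, the first 2 of them above the control at 10 mGy. Placed among all genes, MCL1 was at the 18.9th percentile of log2 ratios at 10 mGy and the 14.2nd at 100 mGy, and BCL2 at the 25.2nd and the 2.30th. BAD was at the 94.3rd and the 92.5th percentile, and BAX at the 90.1st and the 88.9th. BCL2L1 was at the 60.3rd percentile at 10 mGy and the 48.6th at 100 mGy, which is the middle of the genes. The median log2 ratio of the 3 pro-survival members was -0.59 at 10 mGy and -0.88 at 100 mGy, and that of the 7 pro-death members 0.06 and 0.08. Over all 10 members the median lay 0.23 above that of all genes at 10 mGy and 0.13 above it at 100 mGy, but against genes of at least 100 CPM the difference was -0.0135 and -0.182.

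**Figure D2:**
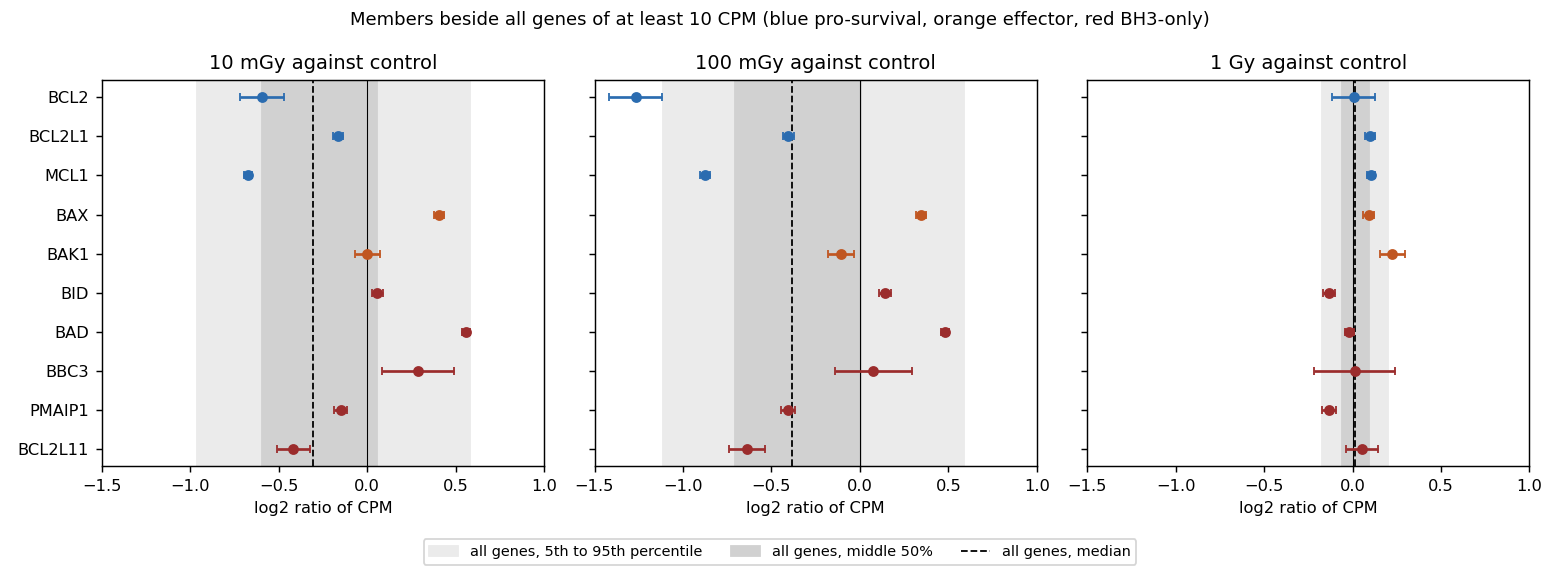
Log2 ratio of CPM to the control (horizontal axis) of each member (vertical axis) at 10 mGy, 100 mGy and 1 Gy; points carry 95% counting intervals, and grey bands and the dashed line give the spread and the median of the 8507 genes of at least 10 CPM. At 100 mGy BCL2 lies at -1.27 and MCL1 at -0.88, left of the all-gene median of -0.38, and BAD lies at 0.48; at 1 Gy every member lies between -0.13 and 0.23.

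The libraries of 10 mGy and 100 mGy were also compared with each other. BCL2 was lower at 100 mGy, at 0.627 (0.563 to 0.697) of its level at 10 mGy, and was the 1 member past 1.2-fold, beside 12.7% of all genes that were lower. In the other direction there were 0 members beside 1.35% of all genes. BID was the only member higher at 100 mGy than at 10 mGy, by a ratio of 1.06 (1.04 to 1.08). BAX and BAD differed by log2 ratios of -0.06 and -0.08, close to the all-gene median of -0.07. Set against 1 Gy, which shares no library with the comparison of 10 mGy and control, the 100 mGy library had MCL1 at 0.507, BCL2 at 0.414, BAD at 1.41 and BAX at 1.19. In that comparison 6 members were lower (all but BAX, BID, BAD and BBC3) beside 60.6% of all genes, and 2 were higher (BID, BAD) beside 14.0%.

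The balance of pro-death against pro-survival transcripts needs no scaling between libraries, because both sums come from the same library. The 7 pro-death members gave 1.61 UMIs per pro-survival UMI in the control (1.59 to 1.63), 2.73 for 10 mGy (2.70 to 2.76), 3.05 for 100 mGy (3.01 to 3.09) and 1.49 for 1 Gy (1.468 to 1.502). Relative to the control, the 3 irradiated libraries were at 1.70, 1.90 and 0.923 by dose. Lengths were not corrected for in these sums, so the value is not read as an excess of pro-death protein. Differences between libraries are not free of length either. At 10 mGy and 100 mGy the median log2 ratio was 0.36 and 0.36 for genes with under 2 kb of exons. For genes with 3 to 5 kb it was -0.18 and -0.26. BAD is in the first of these classes, and MCL1, BCL2L1, BID and BBC3 are in the second. The part of length in the balance was not tested. By CPM both sides contributed. The pro-survival sum was 218, 158, 135 and 233 CPM and the pro-death sum 351, 431, 412 and 347 CPM from the control to 1 Gy. The direction of the pro-death side depends on the scaling. With unscaled UMIs per barcode every pro-death member was below the control at 100 mGy, and all but BAD (1.02) were at 10 mGy. By CPM the whole family hardly differed, with 569, 589, 547 and 580.2 CPM, but this sum depends on the scaling as well. Within the family, MCL1 took 23.3%, 14.1%, 13.2% and 24.5% of family UMIs from the control to 1 Gy. The share of BAD was 21.7%, 30.8%, 31.4% and 21.0% in the same order.

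The balance was also taken with members left out. Without BAX the balance was 1.23, 2.03, 2.27 and 1.11 from the control to 1 Gy, and without MCL1 it was 4.10, 5.75, 6.55 and 3.80 in the same order. Without BAD, the largest pro-death contributor, it was 1.04, 1.58, 1.78 and 0.964, which puts the low doses at 1.52 and 1.70 of the control. Without both BAX and MCL1 it was 3.13, 4.28, 4.87 and 2.83. With both BAD and MCL1 left out, the low doses were at 1.25 and 1.44 of the control, the smallest difference of the 5 versions. BAX alone per MCL1 was 0.626, 1.32, 1.46 and 0.621 UMIs. PMAIP1 per MCL1, a sensitizer and its main partner, was 0.394, 0.566, 0.546 and 0.334 in the same order, although the CPM of PMAIP1 itself was lower in the low-dose group.

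**Figure D3:**
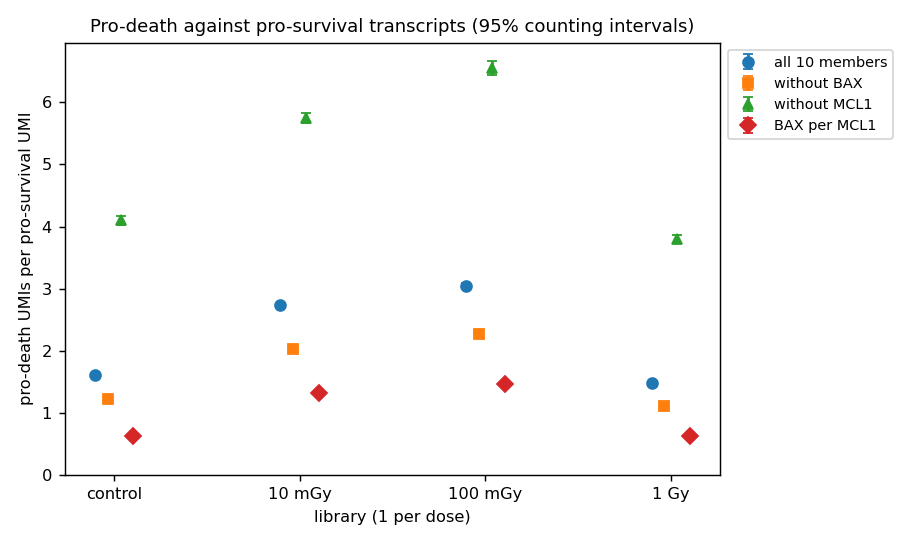
Pro-death UMIs per pro-survival UMI (vertical axis, from 0) in the 4 libraries (horizontal axis), for all 10 members, without BAX, without MCL1, and for BAX per MCL1; bars are 95% counting intervals and are mostly smaller than the symbols. In each version both low-dose libraries lie above the control and 1 Gy, for example 2.73 and 3.05 against 1.61 and 1.49 for all members.

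The members also differ in the build of their transcripts. AU-rich elements, runs of the pentamer AUUUA in the 3' untranslated region, are known as binding sites for proteins that speed or slow the decay of an mRNA, and those of BCL2 and MCL1 are classical examples. The pentamer was searched on the mRNA strand, overlapping matches included, in the longest coding transcript of each member (GENCODE 29). The 3 pro-survival members held it, with 13 matches in BCL2, 10 in MCL1 and 3 in BCL2L1. Among the pro-death members BCL2L11 held 8, PMAIP1 5 and BID 2, and BAX, BAK1, BAD and BBC3 held 0. The stretch of 30 bases with the most matches, or the first of equal ones, is shown for each of the 6 members that had any, in DNA letters from 5' to 3', with the pentamers in capitals (positions in GRCh38):
BCL2 (chr18:63128352-63128381, minus strand): aaaaaaagATTTATTTATTTAagacagtcc
MCL1 (chr1:150576216-150576245, minus strand): acctaATTTAactggtgaaATTTAaagtga
BCL2L1 (chr20:31665767-31665796, minus strand): tagttttctagaATTTAtcacacttctgtg
BCL2L11 (chr2:111167091-111167120, plus strand): tgtatATTTAttttctgcttATTTAatgtc
PMAIP1 (chr18:59903967-59903996, plus strand): aattttATTTAttttgcctATTTAtaatta
BID (chr22:17735355-17735384, minus strand): atgaaaatgtccATTTAcacgtatttgaat
BCL2 has 3 overlapping matches in 1 run, MCL1, BCL2L11 and PMAIP1 have 2 separate ones, and BCL2L1 and BID have 1.

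The number of matches and the ratios were set side by side as a description only. BID, with 2 matches, was above the control. The 3' untranslated regions of BCL2, BCL2L11 and MCL1 are 5279, 4424 and 2819 bases long, whereas those of BAD, BAX and BBC3 are 379, 701 and 975 bases. Of the 8318 expressed genes with a coding transcript model, 73.9% held at least 1 match, with medians of -0.38 (10 mGy) and -0.47 (100 mGy) on the log2 scale, against -0.04 and -0.11 for the genes with 0. Longer regions more often hold a match, so genes were also compared within 4 classes of length. At 10 mGy the median was -0.03 with a match and 0.10 without under 500 bases, -0.19 and -0.09 from 500 to 1000, -0.34 and -0.33 from 1000 to 2000, and -0.49 and -0.43 above that. At 100 mGy the medians were -0.06 and 0.06, -0.26 and -0.19, -0.42 and -0.42, and -0.59 and -0.51 in the same classes. The differences within a class were smaller than those between the shortest and the longest class, and their part in the values of the members was not tested. Among genes whose region is within 20% of the length of a member's, a match was held by 99.5% for BCL2, 98.2% for BCL2L11, 96.3% for MCL1, 84.4% for BAK1 (1450 bases), 62.7% for BAX and 41.7% for BAD.

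Exonic length, which is the summed length of all annotated exons of a gene, was set beside the ratios as well. Over 8404 genes the Spearman correlation of exonic length with the log2 ratio was -0.56, -0.57 and 0.03 in the order of dose, and over the 10 members it was -0.67, -0.64 and -0.03. These are descriptions across genes of the same libraries, and genes are not independent replicates. BAD (1.71 kb) and BCL2 (11.8 kb) are the shortest and the longest member, and they are also the highest and the lowest in log2 ratio at 100 mGy. PMAIP1 (2.24 kb) and BID (4.45 kb) did not follow that order, since the shorter was lower than the control and the longer higher at 100 mGy. The share of ribosomal protein UMIs moved with the same libraries, being 13.9%, 19.9%, 21.7% and 14.0% from the control to 1 Gy. The part of length or of this shift in the values of the members was not tested.

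The members were also set beside the median of genes of like exonic length. The spread of genes within a length class was not taken, so how unusual these differences are was not tested. MCL1 (4.37 kb) was 0.49 below the median log2 ratio of genes of 3 to 5 kb at 10 mGy (a difference of -0.49) and 0.62 below it at 100 mGy (-0.62). BAX (2.59 kb) was 0.34 and 0.32 above the median of genes of 2 to 3 kb, and BBC3 (3.18 kb) 0.47 and 0.33 above that of genes of 3 to 5 kb. BID, from the same length class as MCL1, was 0.24 and 0.40 above it. PMAIP1 (2.24 kb) was 0.21 and 0.43 below its class (-0.21 and -0.43). BAD (1.71 kb), the largest excess by CPM, was 0.20 and 0.12 above the median of genes under 2 kb, which was itself 0.36 at both doses. BAK1 was near its class, with differences of -0.06 and -0.13. BCL2 was at its class median at 10 mGy (a difference of -0.0046) and 0.56 below it at 100 mGy (-0.56). BCL2L1 and BCL2L11 were within 0.02 of their class at 10 mGy and 0.15 below it (-0.15) at 100 mGy.

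**Figure D4:**
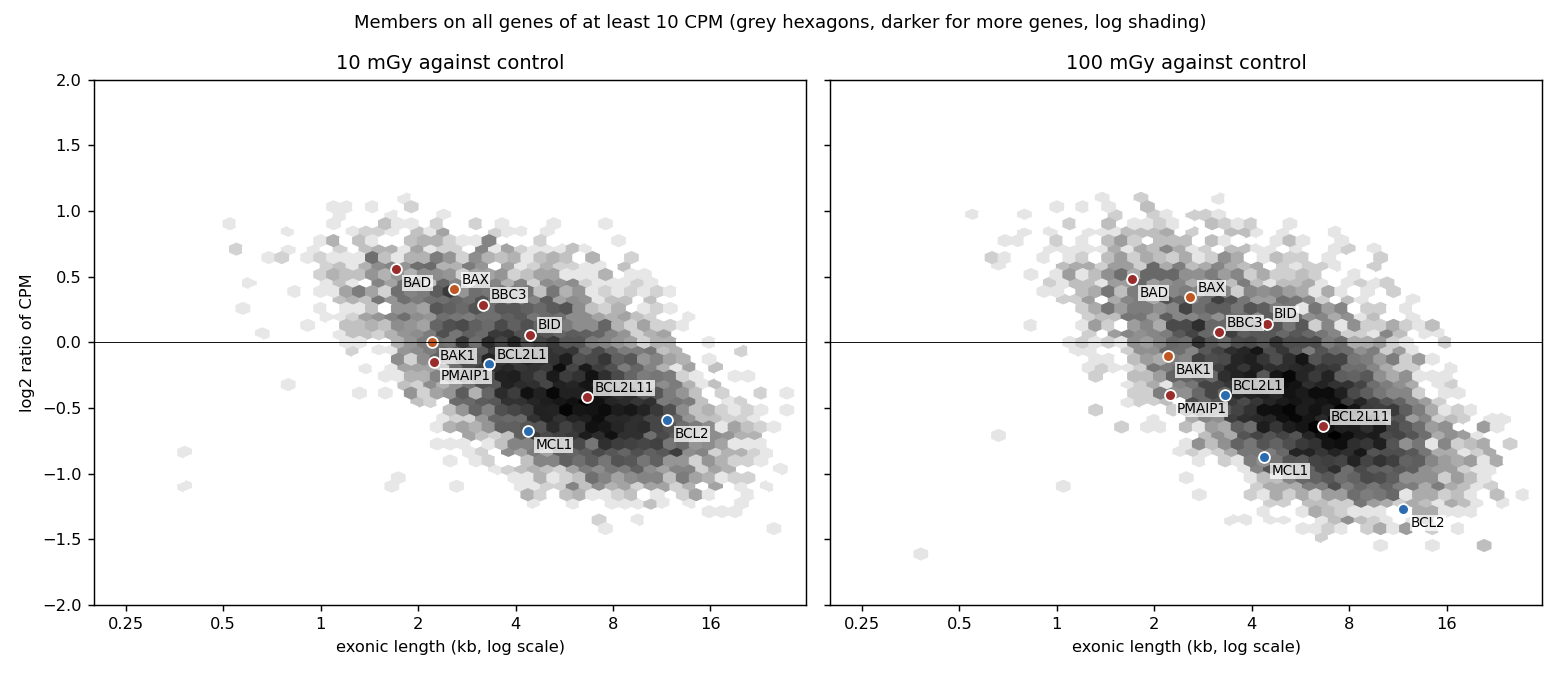
Log2 ratio of CPM to the control (vertical axis) against exonic length in kb (horizontal axis, log scale) at 10 mGy and 100 mGy; grey hexagons count all genes of at least 10 CPM (darker for more genes) and coloured points are the 10 members. The grey cloud slopes from short genes at the top left to long genes at the bottom right; BAD lies on its upper left, and MCL1 lies at -0.67 and -0.88, below most genes of 4 kb.

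In single barcodes the same differences were seen after every cell had been thinned to 5000 UMIs, which left 9060, 12561, 14271 and 11530 barcodes from the control to 1 Gy and dropped 2051, 8953, 5679 and 3980 shallower ones. A UMI of MCL1 was then found in 46.9% of the control barcodes (45.8 to 47.9), in 34.0% for 10 mGy (33.2 to 34.8), in 29.7% for 100 mGy (28.98 to 30.5) and in 50.2% for 1 Gy (49.2 to 51.1). BAX was found in 34.2%, 41.8%, 40.6% and 34.9%, and BAD in 46.4%, 59.5%, 57.0% and 45.2% of barcodes in the same order. Before thinning, MCL1 was found in 76.8%, 49.9%, 48.3% and 68.2%, BAX in 67.9%, 55.8%, 58.2% and 58.3%, and BAD in 76.3%, 65.5%, 67.9% and 66.3%, so the control was then the highest library for BAX and BAD. These shares also include the shallower barcodes, so depth and the barcodes used cannot be told apart in them. All cells are of 1 line, so no cell type that lacks these genes was at hand to give the background of free RNA. For the rare members the shares after thinning were 0.703% to 1.00% of barcodes (BBC3) and 1.11% to 2.80% (BCL2).

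More pro-death than pro-survival UMIs were counted in 53.4% of thinned control barcodes (52.4 to 54.5), in 68.8% for 10 mGy (67.9 to 69.6), in 69.6% for 100 mGy (68.8 to 70.3) and in 51.0% for 1 Gy (50.1 to 51.9). The reverse, more pro-survival UMIs, was counted in 23.4%, 13.0%, 11.0% and 25.1%. At this depth a barcode held UMIs of 2.13 to 2.28 members on average, and 5.59% to 6.83% of barcodes held none, so the sign of the balance in a single cell rests on a few UMIs.

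By variance over mean, PMAIP1 was the member whose UMIs were spread most unevenly over the cells. Its variance over mean at 5000 UMIs was 1.15, 1.10, 1.11 and 1.09 from the control to 1 Gy, where 1 is the value of counting noise alone. The median of all genes was 1.02 in each library, and PMAIP1 lay at the 95.9th, 94.4th, 94.1st and 93.2nd percentile from the control to 1 Gy. At 1 Gy BBC3 was nearly equal to it, at 1.088 against 1.089 (93.1st percentile). Genes were not matched for their level, which differs between the members, so the ranking holds for this measure only. MCL1 had 1.05, 1.04, 1.04 and 1.00, and BAX between 0.997 and 1.02, close to the median gene.

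Within each library the members were next compared between cell states, which does not set 1 dose against another. The 10% of barcodes with the highest share of UMIs in 37 S phase genes, in 37 G2/M genes, or of CDKN1A were set against the other 90%, with low-UMI barcodes left out. CDKN1A encodes the cell cycle inhibitor p21. Its level in the whole library was 28.5, 31.6, 24.7 and 28.9 CPM from the control to 1 Gy.

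BBC3 and PMAIP1 were higher in the cells with the most CDKN1A in all 4 libraries. BBC3 was at 3.99 CPM in these cells and 1.27 CPM in the others of the control, 2.82 and 1.77 CPM at 10 mGy, 4.19 and 1.38 CPM at 100 mGy, and 3.34 and 1.35 CPM at 1 Gy. The 4 ratios were 3.14 (2.39 to 4.08), 1.59 (1.22 to 2.06), 3.04 (2.35 to 3.88) and 2.48 (1.84 to 3.29), each resting on 61 to 84 UMIs in the high cells, and the 10 mGy library was the lowest. PMAIP1 was at 67.8 and 50.8 CPM in the control, 57.0 and 46.6 CPM at 10 mGy, 52.1 and 38.5 CPM at 100 mGy, and 61.1 and 46.6 CPM at 1 Gy, with ratios between 1.22 and 1.36. BAX (1.06 to 1.11) and BCL2L1 (1.09 to 1.11) showed small excesses whose intervals lay above 1 in all 4 libraries, and those of MCL1 (1.00 to 1.05) did so in 0. Over 1.2-fold higher were 2, 2, 4 and 2 members from the control to 1 Gy, beside 1.69%, 1.79%, 2.79% and 0.987% of all genes, while 0 members were lower beside 0.647%, 0.999%, 1.28% and 0.588%. The 4 members at 100 mGy included BCL2 and BCL2L11, whose intervals included 1 with the highest 5% of cells (0.766 to 1.79 and 0.944 to 1.56). BCL2, BCL2L11 and BBC3, which was counted in every library, lie below the floor of 10 CPM for the genes in these shares. The cells with the most CDKN1A had fewer UMIs, for example a median of 12254 against 15527 at 100 mGy, and the part of depth was not tested.

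BCL2 and BCL2L11 differed between the cell cycle states. In each library S phase cells had fewer UMIs than the others and G2/M cells more. In the control the medians were 19258.5 against 22196 for S phase and 25950 against 21496 for G2/M. The part of depth was not tested. BCL2 in S phase cells was 1.75, 1.64, 1.82 and 1.82 times its level in the other cells from the control to 1 Gy, and in G2/M cells 0.791, 0.613, 0.644 and 0.542 times, with every interval clear of 1. BCL2L11 was higher in both states in all 4 libraries, with ratios of 1.28 to 1.48 in S phase and 1.23 to 1.36 in G2/M. With the highest 5% of cells in place of 10%, its control ratios were 1.19 (0.956 to 1.47) in S phase and 1.08 (0.883 to 1.31) in G2/M, so both intervals included 1. Reads of BCL2L11 cannot be told apart with certainty from those of MIR4435-2HG here either. PMAIP1 was higher in S phase (1.11 to 1.34) and lower in G2/M (0.840 to 0.883) in all 4 libraries. BBC3 was higher in S phase cells of 3 libraries, by 1.71 to 1.99, and at 0.986 (0.633 to 1.48) at 1 Gy. BID was lower in G2/M cells throughout (0.883 to 0.920), and BAK1 was higher there (1.09 to 1.21) with the interval above 1 in 3 of 4 libraries, and in 1 with the highest 5% of cells. MCL1 (0.982 to 1.03) and BAD (1.00 to 1.05) hardly differed in G2/M. In S phase MCL1 was at 1.11 (1.06 to 1.16) at 10 mGy and 1.09 (1.03 to 1.15) at 100 mGy, against 0.972 in the control and 0.975 at 1 Gy, and with the highest 5% of cells the 10 mGy interval included 1.

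Counted past 1.2-fold in S phase cells, 4, 4, 4 and 2 members were higher from the control to 1 Gy beside 6.94%, 9.31%, 14.0% and 6.35% of all genes, and 0 were lower beside 2.53%, 2.13%, 2.34% and 2.74%. The higher members were BCL2 and BCL2L11 in each library, with BBC3 and PMAIP1 in all but 1 Gy. BCL2, BBC3 and BCL2L11 have means of 4.06, 1.62 and 7.73 CPM, below the floor of 10 CPM for the genes in such shares. Their ratios carry more counting noise than those of genes above the floor, so counts and shares compare unlike genes. In G2/M cells 2, 1, 1 and 2 members were higher beside 8.23%, 9.70%, 12.4% and 8.17%, and 2 were lower in each library (BCL2, BBC3) beside 10.8%, 8.88%, 8.55% and 10.3%. Those of BBC3 rest on 22 to 44 UMIs, and its interval included 1 at 10 mGy (0.571 to 1.09) and 1 Gy (0.539 to 1.22). With the highest 5% of cells the interval of BBC3 included 1 in all libraries except 1 Gy (0.399, 0.159 to 0.832, from 7 UMIs). Between the libraries themselves, the 37 S phase genes summed to 3247, 3032, 2816 and 3285 CPM and the G2/M genes to 6630.0, 5234, 5907 and 6846 CPM. These sums moved with the low-dose libraries, and their part in the values of BCL2 and BCL2L11 between doses was not tested.

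**Figure D5:**
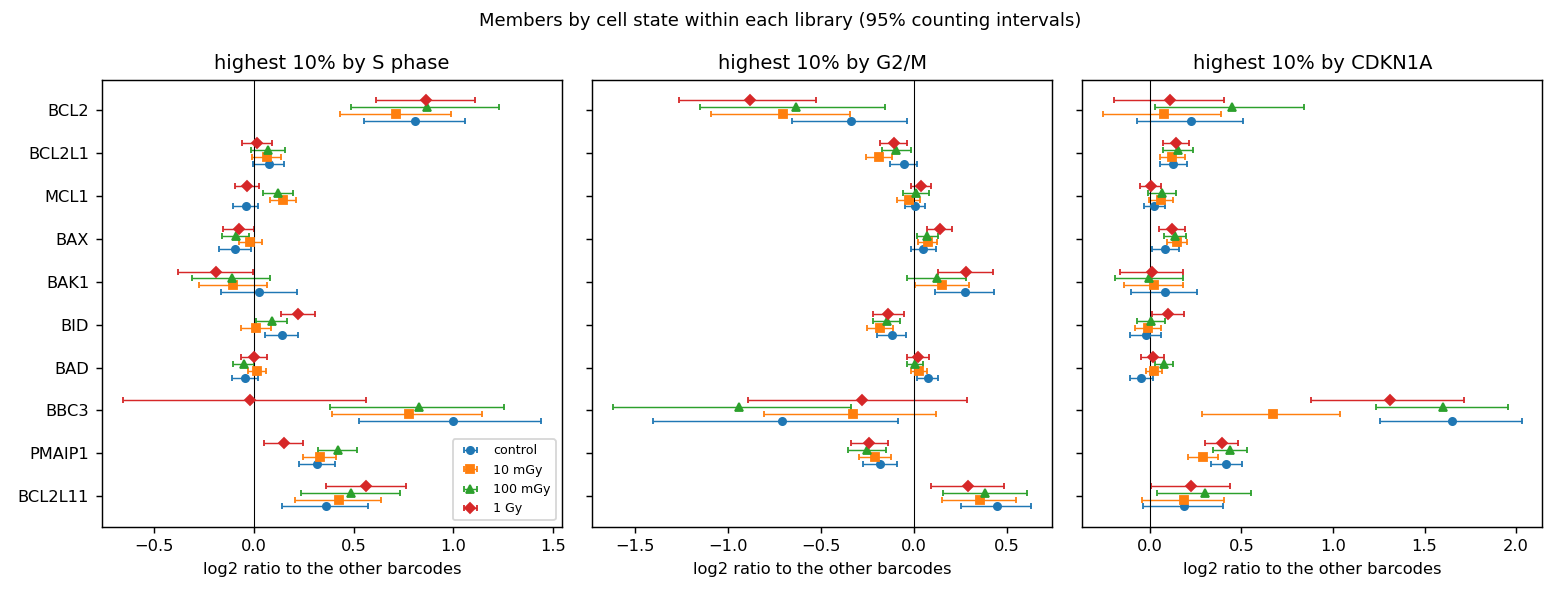
Log2 ratio of each member between the 10% of barcodes highest in S phase genes, G2/M genes or CDKN1A and the other barcodes (horizontal axis), for each member (vertical axis) and library (symbol); bars are 95% counting intervals. BCL2 lies right of 0 in S phase and left of 0 in G2/M in each library, and BBC3 and PMAIP1 lie right of 0 in the cells with the most CDKN1A.

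Low-UMI barcodes held 2.16% to 5.40% of the UMIs of their library, and without them MCL1 was at 0.632 and 0.544 and BAD at 1.47 and 1.39 of the control at the low doses. BID was higher in them than in the other barcodes at 10 mGy (86.9 against 69.6 CPM), 100 mGy (92.6 against 74.3 CPM) and 1 Gy (73.1 against 61.5 CPM), and not in the control (66.9 against 67.7 CPM). MCL1 was lower in them in every library, with ratios of 0.837, 0.798, 0.919 and 0.691 from the control to 1 Gy, although at 100 mGy the interval reached 1.01. BAD was lower as well, with ratios between 0.727 and 0.858.

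Genes that act with the family in apoptosis were counted in 6 lists with 51 expressed genes. Over 1.2-fold lower were 54.9% of them at 10 mGy and 60.8% at 100 mGy, near the 53% and 58.9% of all genes, and 0 passed the limit at 1 Gy, where 1.28% and 0.846% of all genes did. Of the 6 expressed inhibitors of apoptosis and their antagonists, 4 were lower at each low dose and 0 higher, with median log2 ratios of -0.66 and -0.80. BIRC3, which encodes the ubiquitin ligase cIAP2, had 36.9, 10.2, 13.4 and 32.3 CPM from the control to 1 Gy, and BIRC2, which encodes cIAP1, had 130.2, 59.6, 55.7 and 124 CPM. In the apoptosome and caspase list 4 of 9 expressed genes were lower and 1 higher at 10 mGy, and 6 lower and 1 higher at 100 mGy. APAF1, the scaffold that cytochrome c assembles, had 29.2, 15.4, 15.2 and 27.9 CPM, and CASP8 had 18.7, 11.9, 10.7 and 16.1 CPM.

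Of the other BCL2 family genes, 3 of 6 expressed ones were lower at 10 mGy and 2 at 100 mGy, with 0 higher. Beside this and the next lists, 53% and 58.9% of all genes were lower and 15.4% and 14.0% higher at these doses. BNIP3, a mitophagy receptor with a BH3-like motif, was at ratios of 0.594 (10 mGy) and 0.895 (100 mGy), and BOK at 0.755 and 0.749. Death receptors and ligands had 3 of 4 expressed genes lower at each low dose, among them TNFRSF10A (0.601 and 0.538) and TNFRSF1A (0.803 and 0.689), and 1 higher at 10 mGy (TRADD, at 1.32, named after its values were seen). Of 7 mitochondrial partners, 2 were higher and 3 lower at both low doses. MTCH2, the receptor that brings truncated BID to mitochondria, was at 1.43 and 1.31 of the control, and OPA1, which shapes the cristae, at 0.503 and 0.452. Of 19 expressed regulators of member proteins, 11 were lower and 2 higher at 10 mGy, and 13 lower and 1 higher at 100 mGy, beside the same 53% and 58.9% of all genes lower. FBXW7, a ubiquitin ligase subunit that targets MCL1, was at 0.513 and 0.457, and the kinase GSK3B, which marks MCL1 for it, at 0.579 and 0.488.

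In the integrated stress response, which can induce BBC3 and PMAIP1, 4 of 6 expressed genes were lower and 1 was higher at each low dose, beside 53% and 58.9% of all genes lower and 15.4% and 14.0% higher. DDIT3 (CHOP) had 7.81, 15.8, 10.9 and 8.71 CPM from the control to 1 Gy, whereas ATF4 was at 0.610 and 0.559 of the control in the low-dose group.

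The genes most like MCL1 over the 3 log2 ratios, among those with at least 100 CPM, were FLII (distance 0.0299) and LPP (0.0494), and those most like BAX were FAM177A1 (0.0354) and RAB5IF (0.0359). Distances are Euclidean, over 3 ratios from 4 libraries with a common control. Among the members, BCL2L1 and PMAIP1 were each other's nearest (0.233), as were BID and BBC3 (0.277), and the first pair joins a pro-survival with a pro-death member. The log2 ratios of BBC3 have wide counting intervals, for example -0.22 to 0.24 at 1 Gy, so its pairing with BID is uncertain. BAD was nearest to BAX (0.232), BCL2 to MCL1 (0.411), and BAK1 (0.364) and BCL2L11 (0.347) to BCL2L1.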

How the data were processed

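Each library is 1 Chromium 3' single-cell library of BEAS-2B cells. The deposited files hold raw counts, UMIs for each gene in each barcode with no normalization, made with Cell Ranger 7.0.1 per the file headers; the submitters' processing notes name Cell Ranger, STAR and GRCh37. Whether intronic reads or strand were used is not given in the sources used here. Doses were taken from the sample labels. Members and gene lists were chosen with earlier results of these data known.

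UMIs were summed over all deposited barcodes and divided by the library total (CPM, per 1000000). All 10 members were kept, 7 of them with a mean of at least 10 CPM; the reference was the 8507 genes at or above that floor. Ratios carry exact conditional intervals, levels exact Poisson intervals and shares exact binomial (Clopper-Pearson) intervals, at 95%. Doublets were kept. Ratios and intervals were run on simulated Poisson counts, which the intervals assume. The simulation had no spread between cells or libraries, so it only checks the calculation. Lengths, positions and transcript sequences came from GENCODE 29 (GRCh38), matched by gene identifier for 99.9% of expressed genes. The submitters' notes name GRCh37, so whether GRCh38 is also the build of the counts is not settled here. Genes outside the family were named by a rule: of each list at most the 2 of at least 10 CPM furthest from the control at 10 or 100 mGy, with CDKN1A always, and for MCL1 and BAX the 2 nearest genes of at least 100 CPM; 1 list and some genes that the rule names are not reported here. The length classes and the pentamer search were chosen after values were seen. Alternatives were other scalings, filters on barcodes, thinning, floors and a threshold of 1.5-fold. Scripts ran in Python 3.11.15 with scipy 1.17.1, numpy 2.4.6, matplotlib 3.10.9 and pandas 2.3.3.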

Additional observations from a re-analysis of the deposited data

How the results depend on the processing

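With 1 library per dose no spread between replicates is known, and the rare members BBC3 and BCL2 rest on few UMIs. No paired analysis was possible because each dose has 1 library.

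Scaling decided the counts of members. Under median ratio scaling 5 members were over 1.2-fold higher at 10 mGy and 5 at 100 mGy, and 2 were lower at 100 mGy. With unscaled UMIs per barcode, 0 were higher at 10 mGy and 0 at 100 mGy, beside 1.62% and 1.02% of all genes. Lower at 10 mGy, 100 mGy and 1 Gy were 7, 9 and 9, beside 84.6%, 90.1% and 97.2% of all genes. At 1 Gy every member was then below the control. At 10 mGy and 100 mGy BAX was at 0.918 and 0.812 of the control, BID at 0.722 and 0.706 and BBC3 at 0.845 and 0.675. BAD was at 0.892 at 100 mGy, and all of these values are on the other side of 1. Under median ratio scaling BCL2L1 and PMAIP1 were at 1.10 and 1.11 of the control at 10 mGy and BAK1 at 1.21 at 100 mGy, also on the other side. With a threshold of 1.5-fold, 0 members were higher at 10 mGy and 0 at 100 mGy, and 3 were lower at 100 mGy, beside 4.94%, 5.04% and 33.9% of all genes. MCL1 and BCL2 were below the control at both low doses under every alternative (MCL1 0.435 to 0.772 at 10 mGy and 0.349 to 0.711 at 100 mGy).

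The median log2 ratio of the members less that of all genes was 0.0664 at 100 mGy with UMIs scaled to 10000 per barcode, 0.157 at 10 mGy after thinning to 5000 UMIs, and -0.0135 and -0.182 at 10 mGy and 100 mGy against genes of at least 100 CPM. The balance of pro-death to pro-survival UMIs relative to the control was 1.84 at 100 mGy and 0.954 at 1 Gy with UMIs scaled to 10000 per barcode, and 1.64 and 1.85 at 10 mGy and 100 mGy after thinning. With BAD left out of the sums it was 1.52 and 1.70 at the low doses, and with BAD and MCL1 left out 1.25 and 1.44 (chosen after seeing the data). Apart from the scalings, the reference genes and the members left out, whose effect follows from their construction, the cause was not tested. Of 72 intervals of members that were clear of 1 between cell states, 18 included 1 with the highest 5% of cells. In the highest 5% of cells by CDKN1A, BBC3 was higher in 4 of 4 libraries, by 2.10 to 5.89.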
